A study of Rattus norvegicus with 4 samples.

Results

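The genes described here code for the chains of collagens and laminins and for the Adamts enzymes and Adamts-like (Adamtsl) proteins that process or bind the extracellular matrix. They were chosen by symbol alone: a collagen alpha chain (Col with 2 numbers), a laminin alpha, beta or gamma chain (Lama, Lamb or Lamc), a numbered Adamts or a numbered Adamtsl. The rule found 76 members among the 32883 genes of the count matrices: 6 collagen IV chains, 10 laminin chains, 11 fibrillar collagen chains, 9 chains of fibril-associated (FACIT) collagens, 8 network and beaded filament collagen chains, 2 multiplexins, 7 transmembrane and other collagens, 19 Adamts enzymes and 4 Adamtsl proteins.

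Nuclei were isolated from the ventral tegmental area, the midbrain region that holds dopamine neurons of the reward system, and sequenced one nucleus at a time with droplet barcodes. The 4 libraries came from Sprague-Dawley rats of 90 to 120 days and 200 to 250 g that had received no experimental treatment: female 1, female 2, male 1 and male 2, each a pool of 3 rats. Each library is therefore 1 sample, n is 4 for a class of nuclei and 2 for each sex, and individual rats cannot be told apart within a pool. Before filtering, a library held 19714338 to 25824289 UMIs, that is, distinct RNA molecules. After filtering, 20620 nuclei were kept (3523 to 6564 per library). Of these, 16584 were placed in a class and 3790 met no class rule.

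Collagens are built from 3 alpha chains wound into a triple helix, and laminins from 1 alpha, 1 beta and 1 gamma chain. Collagen IV and laminins form the basement membrane around brain vessels, while fibrillar collagens form or regulate fibrils. Secreted Adamts metalloproteases cut matrix proteins, among them procollagens and the brain proteoglycans of the lectican family, and Adamtsl proteins share their binding domains but lack the protease.

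Classes were defined by marker UMIs that include no member. The neuron classes were Th+Slc6a3 (dopamine synthesis enzyme and dopamine transporter, 400 nuclei), Slc26a7+Gad2 (155), Gad1 (GABA synthesis, 1098), and nuclei with Slc17a6, the vesicular glutamate transporter, together with Lmx1a (636), with Sim1 (285) or with neither (Slc17a6 only, 636). A nucleus that met several neuron rules took the first in this order. Of the Th+Slc6a3 nuclei 332 met no other neuron rule, and of the Slc26a7+Gad2 nuclei 85. The non-neuronal classes were Mog (oligodendrocyte marker, 9073), Pdgfra (oligodendrocyte precursor marker, 1328), Gja1 (astrocyte marker, 1969), Csf1r (microglia marker, 885), Flt1 (endothelial marker, 51) and Pdgfrb (mural cell marker, 68). Levels are CPM (UMIs of a gene per 1000000 UMIs) over all nuclei of a class summed in 1 library. Flt1 sums held only 8764 to 39036 UMIs per library and Pdgfrb sums 11649 to 50342, against 274318 to 401883 in Csf1r, so a single UMI in these vessel classes is worth between 19.9 and 114 CPM. Among non-neuronal classes, markers not used in the rules were also high where the class name places them. The 5 oligodendrocyte markers summed to between 23410 and 40420 CPM in Mog and the 5 astrocyte markers to between 3926 and 4620 CPM in Gja1. The 5 endothelial markers summed to between 10150 and 16090 CPM in Flt1. Neuron marker lists separated the neuron classes less well. The 6 Th+Slc6a3 markers summed to between 2043 and 2350 CPM in their class, above every other neuron class. The 3 Slc17a6+Lmx1a markers summed to 79.1 to 95.4 CPM there, against 122 to 149 CPM in Th+Slc6a3. The 4 Slc26a7+Gad2 markers were at 420 to 587 CPM there and 575 to 756 CPM in Th+Slc6a3. The 3 Gad1 markers were at 931.5 to 1110 CPM there and 972 to 1335 CPM in Slc26a7+Gad2. In Pdgfrb nuclei 6 of the 7 mural markers had a UMI, and the smooth muscle gene Acta2 was at 0. A fibroblast list there summed to between 219 and 815 CPM with 3 of 7 genes detected, with Slc6a13 at 199 to 730 CPM and Dcn at 0. The mural markers summed to between 5304 and 14670 CPM in Pdgfrb. The oligodendrocyte precursor markers summed there to between 358 and 1070 CPM with 4 of 5 detected, against 1316 to 1851 CPM in Pdgfra. Oligodendrocyte markers summed to between 85.8 and 2043 CPM in Pdgfrb. The part of such RNA in the Pdgfrb levels was not tested.

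As a share of all UMIs, the 76 members together were highest in Pdgfrb nuclei, at 9244, 9872, 8740 and 6059 CPM in female 1, female 2, male 1 and male 2. They came to between 3537 and 3938 CPM in Pdgfra, 3567 and 3871 CPM in Gja1, and 2967 and 4212 CPM in Flt1. Among neurons, the means were highest in Th+Slc6a3 (1306 to 1766 CPM) and Slc17a6+Lmx1a (1373 to 1561 CPM). Both ranges overlapped Slc26a7+Gad2 (1197 to 1419 CPM) and Slc17a6+Sim1 (1203 to 1419 CPM). Slc17a6 only nuclei had 1138 to 1272 CPM, and all these classes lay above Gad1 (802 to 899 CPM) in every library. Csf1r (734 to 826 CPM), Gad1 and Mog (883 to 1015 CPM) were the lowest, and the Gad1 range overlapped both of the others. In the class comparison 51 members passed the filter on low counts, and the other 25 are reported by level only. Lamc3, Col3a1, Col7a1, Col18a1 and Lama1 did not pass it in a fit without the Flt1 and Pdgfrb classes. Their entry into the test depended on those classes, so their Pdgfrb p-values add no support beyond the levels.

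**Figure D1:**
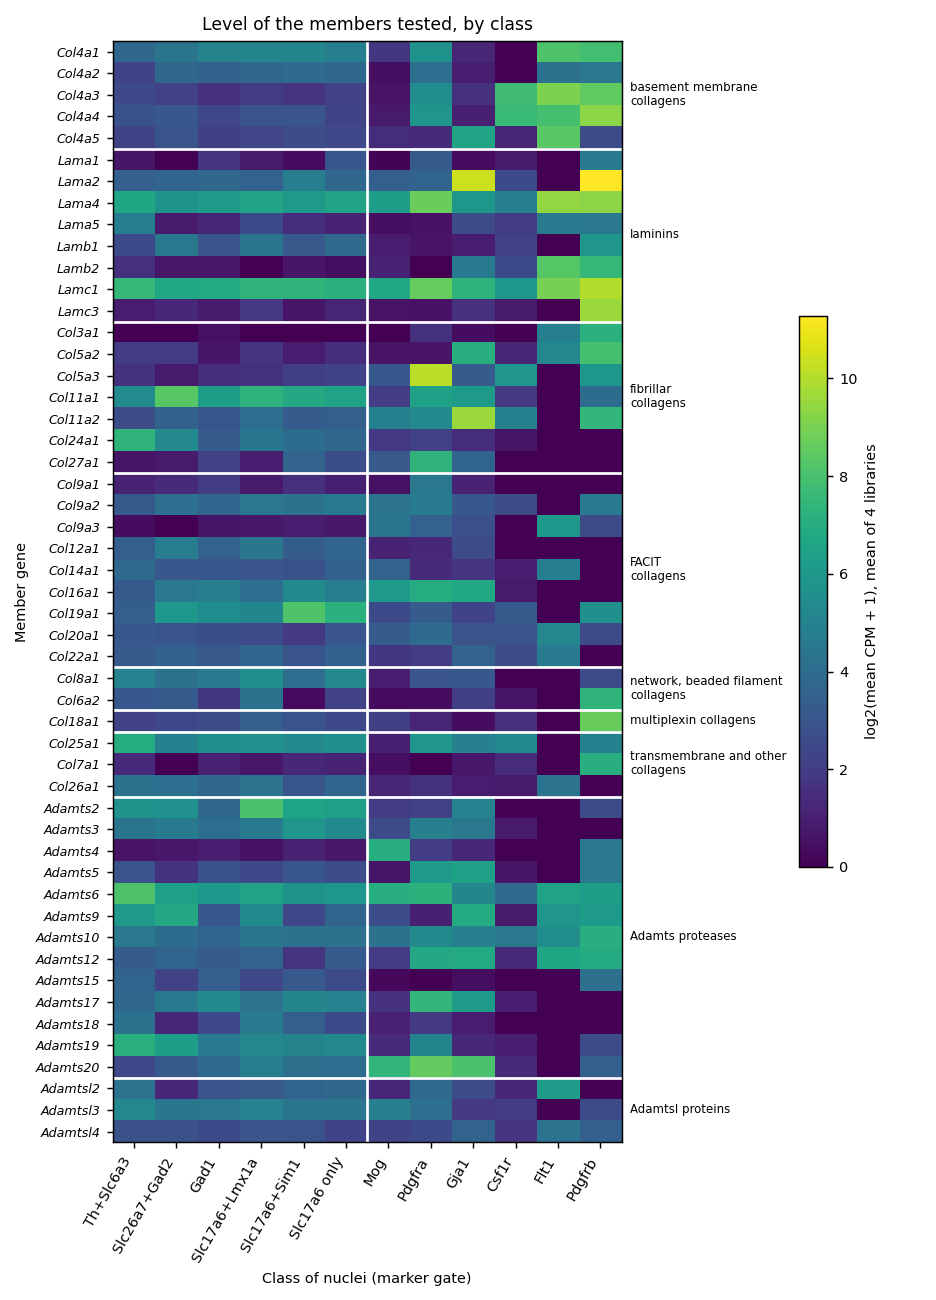
Level of the 51 members that passed the filter (rows, grouped by role) in the 12 classes (columns), as log2 of the mean CPM of 4 libraries plus 1. Each row is read across classes: Lama2 is brightest in Pdgfrb (mean 2476 CPM) and Gja1 (1377 CPM), Col5a3 in Pdgfra (1110 CPM), and many cells of the small Flt1 and Pdgfrb columns are at 0.

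The collagen IV genes lie in pairs that face away from each other, Col4a1 with Col4a2, Col4a3 with Col4a4 and Col4a5 with Col4a6, and each pair codes for chains that can assemble together. In RefSeq on the GRCr8 rat assembly 76 bases separate the starts of Col4a1 and Col4a2 on chromosome 16, 412 bases those of Col4a3 and Col4a4 on chromosome 9, and 1414 bases those of Col4a5 and Col4a6 on chromosome X. The sequences before the starts are shown because the 2 genes of a pair share this stretch of DNA and their levels correlated across classes, though the levels themselves differed. Capitals mark a GC box (GGGCGG, searched on both strands), which the first sequence holds once as its reverse complement and the second holds once. Over the 12 classes the log2 levels of Col4a1 and Col4a2 had a Pearson r of 0.926 (Spearman 0.93), those of Col4a3 and Col4a4 0.975 (0.839) and those of Col4a5 and Col4a6 0.833 (0.627), as a description over classes that share the same 4 libraries. The highest Col4a6 mean, 18.8 CPM in Flt1, came from a single UMI. So did each of the highest Col4a2 means, 21.5 CPM in Pdgfrb and 17.9 CPM in Flt1. The part of these UMIs in r was not tested.
Col4a1 and Col4a2, chr16:84885521-84885596, between both starts, plus strand: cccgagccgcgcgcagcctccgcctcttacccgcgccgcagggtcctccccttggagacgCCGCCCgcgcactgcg
Col4a3, chr9:91323740-91323989, 250 bases before the start, plus strand: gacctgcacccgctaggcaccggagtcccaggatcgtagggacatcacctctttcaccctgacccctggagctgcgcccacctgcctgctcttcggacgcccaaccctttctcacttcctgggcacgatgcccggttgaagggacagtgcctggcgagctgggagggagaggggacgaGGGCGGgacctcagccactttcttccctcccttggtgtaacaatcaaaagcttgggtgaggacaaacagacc
Col4a4, chr9:91323578-91323827, 250 bases before the start, minus strand: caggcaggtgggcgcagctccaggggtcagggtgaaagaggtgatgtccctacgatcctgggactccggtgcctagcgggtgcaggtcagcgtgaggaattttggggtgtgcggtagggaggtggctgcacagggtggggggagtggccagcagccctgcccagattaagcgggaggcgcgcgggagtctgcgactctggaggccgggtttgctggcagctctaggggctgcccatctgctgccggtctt

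The Col4a3 and Col4a4 windows overlap by 88 bases. Of the 27457 promoters in the table, 19.3% held a GC box in the last 76 bases before the start and 32.4% in the last 250. None of the 3 windows held CCAAT or TATAAA, which 13% and 4.8% of the 76-base windows and 34.3% and 13.1% of the 250-base windows held. The GC content of the window between Col4a1 and Col4a2 was 78.9%, against a median of 55.3% over all promoters for that length. A match is a run of letters and not a measured binding site.

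Col4a3, a chain best known from the kidney filter membrane, was high in the Csf1r class. Its level in Csf1r nuclei was 225, 197, 237 and 235 CPM in female 1, female 2, male 1 and male 2, and that of its partner Col4a4 was 178, 187, 182 and 215 CPM. Every Csf1r library lay above every Pdgfra library (35 to 53.5 CPM for Col4a3, 37.7 to 83.5 CPM for Col4a4), and in Mog nuclei both genes had means below 1 CPM. A UMI of Col4a3 was found in 24.1% of Csf1r nuclei on average, or 18% after thinning each nucleus to 1000 UMIs (216 of 885 nuclei were shallower and left out). The same shares in Mog nuclei were 0.106% and 0.0548% (441 of 9073 left out), at median depths of 1389 UMIs for Csf1r and 2328 for Mog.

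In the same Csf1r libraries the astrocyte markers summed to between 1156 and 1961 CPM and 3 of 5 endothelial markers to between 780 and 924 CPM. Lama2, high in Gja1, was at 0 to 9.35 CPM there and Col4a1, high in Flt1, at 0. The part of astrocyte or endothelial RNA in the Csf1r levels of Col4a3 and Col4a4 was not tested.

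Both genes were also detected in the vessel classes, at 228 to 1053 CPM (Col4a3) and 154 to 376 CPM (Col4a4) in Flt1 and at 222 to 515 CPM and 515 to 876 CPM in Pdgfrb. Against the mean of the other non-neuronal classes on the log scale, Csf1r nuclei had 3.55 ± 0.20 (SE) more log2 units of Col4a3 (edgeR adjusted p = 6.66e-25) and 3.30 ± 0.22 of Col4a4 (adjusted p = 2.94e-21). With the vessel classes among the others, the ratio of arithmetic means was 1.19 for Col4a3 and 1.01 for Col4a4, and in a fit without the Flt1 and Pdgfrb classes the differences were 5.96 ± 0.23 and 5.58 ± 0.26. Col4a4 was lower in Mog (by 5.83 ± 0.49 log2 units, adjusted p = 6.89e-17) and in Gja1 nuclei (by 5.48 ± 0.43, adjusted p = 5.75e-18), with -4.59 ± 0.59 and -4.21 ± 0.51 in the fit without the vessel classes. Neurons as a whole were lower than non-neuronal classes in Col4a3 (mean 3.17 against 194 CPM) and Col4a4 (5.88 against 189 CPM), with log2 differences of -3.27 ± 0.29 (adjusted p = 2.97e-16) and -2.38 ± 0.30 (adjusted p = 1.32e-10), and of -1.92 ± 0.32 and -1.10 ± 0.33 without the vessel classes.

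Col4a1, a chain of the common vessel basement membrane, was absent from the counts of the class in which Col4a3 was high. It had no UMI among the 1359455 UMIs of Csf1r nuclei, which allows up to 2.21 CPM (3 counts), while Pdgfra nuclei had 58.1, 42.7, 64.3 and 53.8 CPM, at least 24.6-fold more. In Flt1 it was 451, 215, 114 and 333 CPM and in Pdgfrb 146, 172, 370 and 238 CPM, so the vessel classes overlapped and both lay above Pdgfra in every library. The Flt1 difference from other non-neuronal classes was 4.98 ± 0.55 log2 units (adjusted p = 3.85e-11). Neurons carried it too, at 29.6 to 33.7 CPM in Gad1 and 30 to 38.5 CPM in Slc17a6+Lmx1a, but 6.52 to 18.4 CPM in Th+Slc6a3, where both Col4a1 (by 1.14 log2 units) and Col4a2 (3.77 against 12.5 CPM, by 1.67 ± 0.37, adjusted p = 0.000272) were lower than in the other neurons. Mog and Gja1 means were below 4 CPM.

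Col4a5, the X-linked chain, was in astrocytes at 92.7, 75.1, 93.4 and 123 CPM and in Flt1 nuclei at 376, 286, 456 and 231 CPM, without overlap between the 2 classes. Flt1 nuclei were 4.82 ± 0.53 log2 units above the other non-neuronal classes (adjusted p = 2.25e-11), and their mean was 16-fold higher. Its partner Col4a6 did not pass the filter, with 62 UMIs in all classes.

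Lama2 (alpha 2 chain, found around vessels and muscle) was at 2579, 2575, 2963 and 1788 CPM in Pdgfrb and at 1472, 1469, 1181 and 1388 CPM in Gja1. In these 2 classes the ranges did not overlap, and the next class, Slc17a6+Sim1, had 13.9 to 38.8 CPM. Gja1 nuclei exceeded the other non-neuronal classes by 7.31 ± 0.13 log2 units (adjusted p = 1.14e-50), although the ratio of arithmetic means was 2.75 because Pdgfrb is among them. A UMI of Lama2 was present in 78.5% of Gja1 nuclei (59.4% after thinning, 26 of 1969 nuclei left out) and in 0.73% of Csf1r nuclei (0.431% after thinning), at median depths of 3208 and 1389 UMIs. In Flt1 nuclei it had no UMI, which allows up to 40 CPM and makes Gja1 at least 35.1-fold higher.

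Lamc3, a gamma chain, had its highest level in Pdgfrb nuclei, at 1022, 1116, 667 and 238 CPM. No library of another class exceeded 5.9 CPM, with a mean of 0.765 CPM over the other non-neuronal classes (a difference of 9.18 ± 0.59 log2 units, adjusted p = 1.87e-20). The common gamma chain Lamc1 was highest there as well (1314, 944, 1111 and 656 CPM), then in Flt1 (376 to 640 CPM) and Pdgfra (345 to 427 CPM), and was measured in every class. Lama4, an endothelial and precursor alpha chain, was at 301, 787, 571 and 1153 CPM in Flt1, at 278 to 1030 CPM in Pdgfrb and at 450, 439, 376 and 414 CPM in Pdgfra, and these ranges overlapped. In Pdgfra it exceeded the other non-neuronal classes by 1.91 log2 units, and by 2.96 ± 0.11 in the fit without the vessel classes. Gja1 nuclei had 44 to 96.9 CPM of Lama4 and were lower by 1.43 ± 0.17 (adjusted p = 5.14e-11), a call that was lost without the vessel classes, at -0.66 ± 0.16.

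Lamb2, a beta chain, was at 527, 286, 228 and 205 CPM in Flt1 and 243, 172, 222 and 79.5 CPM in Pdgfrb. Astrocytes had 19.6 to 28 CPM, and no UMI was seen among the 4095695 UMIs of Pdgfra nuclei (up to 0.732 CPM), at least 31.3-fold less than in Gja1. The Flt1 difference was 5.13 ± 0.52 log2 units (adjusted p = 2.99e-12). Lamb1 had its highest mean in Pdgfrb (48.7, 85.8, 74.1 and 19.9 CPM), where each value is a single UMI. It was at 16.4 to 35.3 CPM in Slc26a7+Gad2 neurons, which overlapped both Pdgfrb and Slc17a6+Lmx1a (15.2 to 31 CPM).

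Lama5, an alpha chain, separated dopamine neurons from the other neurons. Its level in Th+Slc6a3 was 21.6, 27.8, 26 and 29.3 CPM, against a mean of 1.95 CPM in the other neuron classes, and no library of another neuron class reached the Th+Slc6a3 range. The difference was 4.05 ± 0.31 log2 units (adjusted p = 1.53e-17). Lama1 was higher in Slc17a6 only nuclei (mean 7.08 against 0.798 CPM, 3.54 ± 0.52, adjusted p = 5.64e-07) and, by 1.78 log2 units, in Gad1 nuclei. Lamb3 had 96 UMIs over all classes and did not pass the filter.

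Fibrillar collagens divided the glial classes. Col5a3, a minor fibrillar chain that regulates fibril assembly, was at 1133, 990, 1332 and 985 CPM in Pdgfra nuclei. It was next highest in Pdgfrb (0 to 146 CPM) and Csf1r (29.9 to 87.3 CPM), and no library of those classes overlapped the Pdgfra range. The difference from other non-neuronal classes was 7.43 ± 0.16 log2 units (adjusted p = 1.73e-46), or 41.5-fold in arithmetic means, and 6.11 ± 0.11 without the vessel classes. Although Col5a3 also passed the test as higher in Csf1r (2.23 ± 0.75 log2 units, adjusted p = 0.0136), its mean there was 57.9 CPM against 237 CPM in the other classes, and the call was lost without the vessel classes, of which Flt1 had no UMI of it (0.41 ± 0.26, adjusted p = 0.182).

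Col27a1, another fibrillar chain, followed the same class: 180, 158, 149 and 148 CPM in Pdgfra, against at most 16.5 CPM in a Gja1 library and at most 15.1 CPM in a Slc17a6+Sim1 library. Col11a2 was instead the astrocyte chain, at 725, 602, 999 and 694 CPM in Gja1 and at 29.4 to 51 CPM in Pdgfra. Its Gja1 difference was 5.79 ± 0.14 log2 units (adjusted p = 4.24e-44), 13.8-fold in arithmetic means, and 4.54 ± 0.07 without the vessel classes. In Pdgfrb nuclei Col11a2 varied from 0 in female 2 to 377 CPM in male 2, where the 5 astrocyte markers summed to between 85.8 and 1053 CPM over the libraries; the part of those markers in this value was not tested. Col5a2 was in Gja1 (109, 132, 163 and 148 CPM) and Pdgfrb (195, 515, 74.1 and 199 CPM), and these overlapped.

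Col3a1, the classic stromal fibrillar chain, was seen in 3 of 4 Pdgfrb libraries (195, 0, 222 and 159 CPM), a difference of 7.48 ± 0.91 log2 units (adjusted p = 1.61e-08), and in 1 Flt1 library at 114 CPM. Col1a1 had 13 UMIs over all classes and Col1a2 was listed at 0 throughout. Col5a1 (102 UMIs) and Col2a1 (305 UMIs) did not pass the filter.

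**Figure D2:**
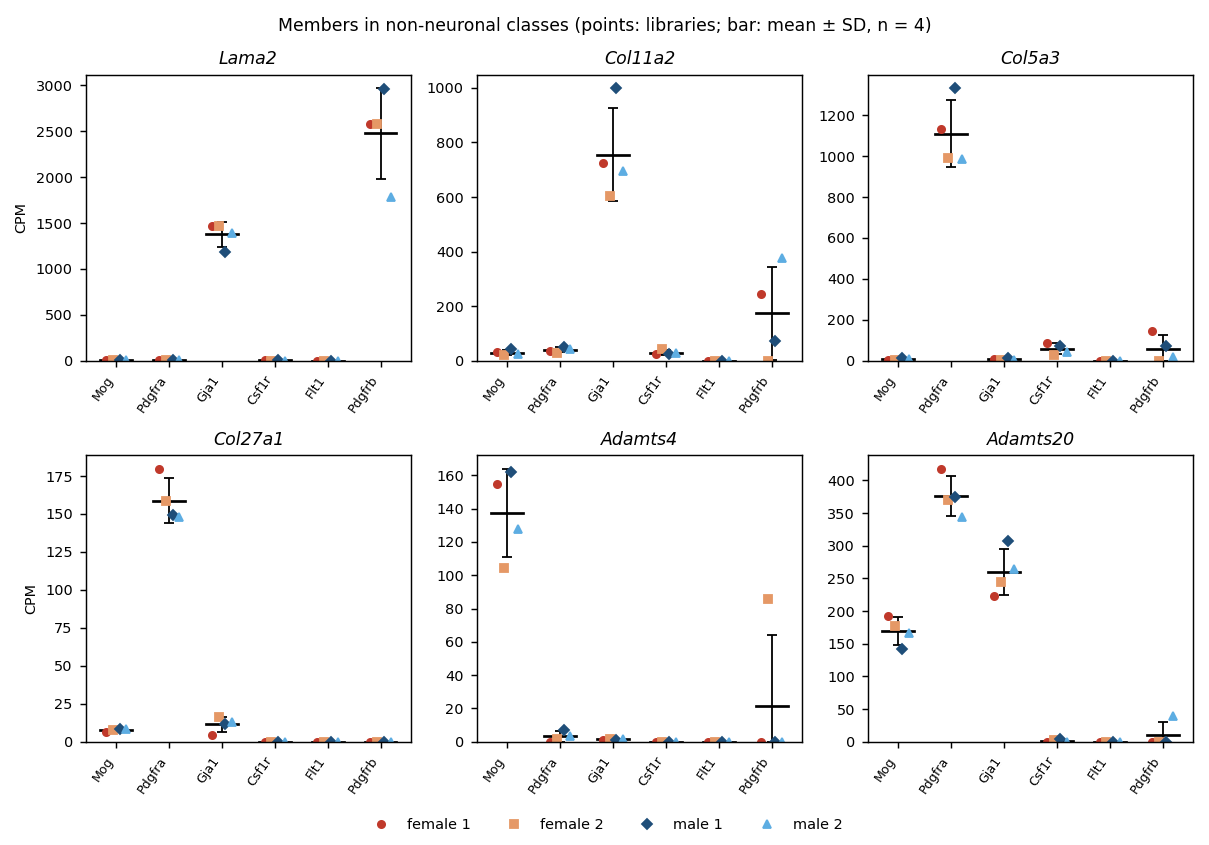
Lama2, Col11a2, Col5a3, Col27a1, Adamts4 and Adamts20 in the non-neuronal classes, in CPM; points are the 4 libraries, the line the mean and the bars the SD (cut at 0), n = 4. Lama2 is high in Gja1 and Pdgfrb, Col11a2 in Gja1, Col5a3 and Col27a1 in Pdgfra, Adamts4 in Mog, and Adamts20 in Pdgfra, Gja1 and Mog.

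Col24a1 and Col11a1 were the fibrillar chains called higher in neurons as a whole. For Col11a1 the glial classes were split. Without the vessel classes, its difference from the other non-neuronal classes was 3.18 ± 0.26 log2 units in Pdgfra and 2.95 ± 0.25 in Gja1. It was -2.89 ± 0.72 in Mog and -3.23 ± 0.73 in Csf1r, and neurons exceeded the mean of these classes by 2.54 ± 0.15. Col24a1, which resembles ancestral fibrillar collagens, was at 240, 94.5, 191 and 106 CPM in Th+Slc6a3. Every other neuron class was below these values in every library, the nearest being Slc26a7+Gad2 with 15 to 62.3 CPM. The Th+Slc6a3 difference was 3.35 ± 0.17 log2 units (8.4-fold in means, adjusted p = 1.16e-24), and 37.8% of these nuclei held a UMI, or 12.5% after thinning, against 5.09% and 0.706% in Gad1 at median depths of 8139 and 7499 UMIs. Gad1 nuclei were lower than the other neurons in Col24a1 by 1.69 ± 0.26 log2 units (adjusted p = 4.88e-07).

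Col11a1 was highest in Slc26a7+Gad2 neurons, at 358, 299, 294 and 357 CPM. The next class, Slc17a6+Lmx1a, had 214, 100, 175 and 131 CPM and did not overlap it, and the difference from all other neurons was 1.87 ± 0.15 log2 units (3.43-fold, adjusted p = 2.78e-16). Th+Slc6a3 neurons were lower in Col11a1 (29.3 to 60 CPM, by 1.55 log2 units).

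The FACIT chain Col19a1, which sits on fibril surfaces and is known from central synapses, was highest in Slc17a6+Sim1 neurons at 437, 112, 372 and 237 CPM, followed by Slc17a6 only at 158, 83.2, 144 and 192 CPM. The classes overlapped, and female 2 was the lowest library in both. That library had 27 Slc17a6+Sim1 nuclei against 78 to 91 in the others, and its Slc17a6+Sim1 nuclei were also the highest of the 4 in Adamts2 (148 against 37.1 to 94.8 CPM), Adamts6 (102 against 26.5 to 54.6 CPM) and Col11a1 (165 against 69.4 to 137 CPM). Col19a1 exceeded the other neurons by 2.85 ± 0.14 log2 units in Slc17a6+Sim1 (adjusted p = 1.01e-24) and by 1.54 ± 0.15 in Slc17a6 only (adjusted p = 3.73e-12). In Th+Slc6a3 it was at 4.35 to 13 CPM, lower by 3.13 ± 0.30 (adjusted p = 1.05e-13).

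Among the other FACIT chains, Col16a1 was at 118 to 130 CPM in Pdgfra, 90.3 to 118 CPM in Gja1 and 57 to 71.9 CPM in Mog. Although Mog nuclei passed the test as higher in Col16a1 (4.87 ± 0.58 log2 units), the ratio of arithmetic means was 1.43, since Csf1r was near 0 and the vessel classes had no UMI, and without the vessel classes the value was 1.76 ± 0.26. Col9a1 was in Pdgfra (17.2, 27.5, 24.3 and 17.9 CPM), where it exceeded the other non-neuronal classes by 6.48 ± 0.68 log2 units (adjusted p = 3.42e-12, and 5.66 ± 0.45 without the vessel classes), whereas Col9a3 was at 18 to 23.2 CPM in Mog. Col12a1 was neuronal (mean 14.7 CPM in neuron classes, 1.26 CPM in non-neuronal classes, 4.79 ± 0.59 log2 units, adjusted p = 2.76e-10, and 3.60 ± 0.34 without the vessel classes). Col9a2 ran from 15.2 to 31.6 CPM in every Mog, Pdgfra, Slc17a6 only, Slc17a6+Lmx1a and Slc17a6+Sim1 library.

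Col8a1, a network chain of vessel and eye membranes, was at 42.9 to 51.6 CPM in Slc17a6+Lmx1a, at 28.7 to 53.8 CPM in Slc17a6 only, which overlapped, and at 25 to 38.4 CPM in Th+Slc6a3. Its mean was 28.3 CPM over neuron and 3.34 CPM over non-neuronal classes (4.35 ± 0.46 log2 units, adjusted p = 1.12e-12). Col6a2, a beaded filament chain, was in Pdgfrb (195, 172, 222 and 59.6 CPM) and, among neurons, in Slc17a6+Lmx1a at 19.3, 11, 22.8 and 18.6 CPM, with 2.65 ± 0.28 log2 units more than the other neurons (adjusted p = 3.13e-11). Its partner Col6a1 had 2 UMIs in all classes. Col18a1, the multiplexin that releases endostatin, was at 195, 1030, 222 and 159 CPM in Pdgfrb (7.63 ± 0.76 log2 units, adjusted p = 2.46e-12), with female 2 far above the other 3. Col7a1, the anchoring fibril chain, was at 146, 258, 74.1 and 79.5 CPM there and below 3 CPM on average in the other non-neuronal classes. Neither Col18a1 nor Col7a1 passed the filter on low counts without the vessel classes.

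Transmembrane Col25a1, whose shed domain binds amyloid, was highest in Th+Slc6a3 neurons at 158, 108, 140 and 95.6 CPM. All other neuron libraries were at or below 93.1 CPM, and the Th+Slc6a3 difference was 1.67 log2 units. The remaining chains Col13a1, Col17a1, Col23a1 and Col28a1 did not pass the filter.

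**Figure D3:**
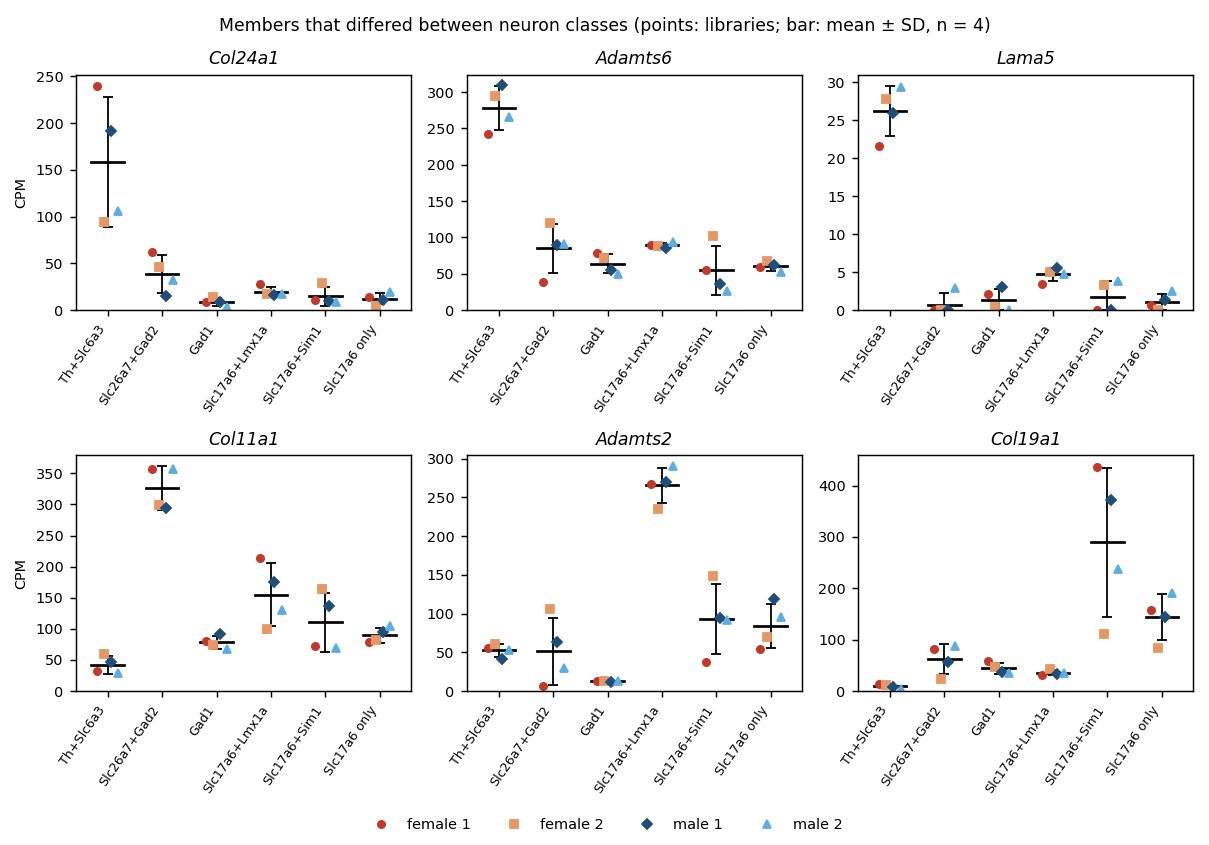
Col24a1, Adamts6, Lama5, Col11a1, Adamts2 and Col19a1 in the neuron classes, in CPM; points are the 4 libraries, the line the mean and the bars the SD (cut at 0), n = 4. Col24a1, Adamts6 and Lama5 are highest in Th+Slc6a3, Col11a1 in Slc26a7+Gad2, Adamts2 in Slc17a6+Lmx1a and Col19a1 in Slc17a6+Sim1, where female 2 is the lowest library.

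Several Adamts enzymes had a level that marked 1 class. Adamts4, an aggrecanase that cuts lecticans, was at 155, 104, 162 and 128 CPM in Mog, against at most 7.28 CPM in any Pdgfra library. Csf1r and Flt1 had no UMI, and Pdgfrb had 1 UMI, in female 2. The Mog difference was 7.61 ± 0.29 log2 units (26.3-fold in means, adjusted p = 4.28e-32), and a UMI was found in 27.1% of Mog nuclei, or 11.9% after thinning, against 0.453% and 0.134% of Gja1 nuclei.

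Other enzymes known to cut lecticans were highest in other classes. Adamts5 was at 90.9, 78.8, 81.7 and 91.9 CPM in Gja1 and at 65.5 to 71.6 CPM in Pdgfra, which did not overlap, and Gja1 nuclei were 5.29 ± 0.29 log2 units above the other non-neuronal classes (adjusted p = 3.47e-25). Adamts9 was at 115, 108, 100 and 157 CPM in Gja1 and, among neurons, at 82, 84.2, 171 and 112 CPM in Slc26a7+Gad2, 2.80 ± 0.25 log2 units above the other neurons (adjusted p = 7.09e-14). Th+Slc6a3 neurons were also higher in Adamts9 (54.1, 56.7, 109 and 47.8 CPM, 2.04 ± 0.21, adjusted p = 7.74e-13), with male 1 overlapping Slc26a7+Gad2, while Gad1 (mean 7.62 CPM) and Slc17a6+Sim1 (mean 4.27 CPM) were lower, by 1.76 ± 0.30 and 3.02 ± 0.45. Adamts20 was at 417, 370, 374 and 343 CPM in Pdgfra, 224 to 307 CPM in Gja1 and 142 to 193 CPM in Mog, in 3 ranges without overlap. Its mean in Mog was 1.31 times that of the other non-neuronal classes, although the log-scale test placed Mog higher by 4.07 ± 0.39, and by 1.85 ± 0.23 without the vessel classes.

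Adamts2 and Adamts3, which trim procollagens, were highest in Slc17a6 neuron classes. Adamts2, the main procollagen N-proteinase, was at 268, 235, 270 and 290 CPM in Slc17a6+Lmx1a. No library of another class exceeded 148 CPM, and this class exceeded the other neurons by 2.51 ± 0.13 log2 units (4.51-fold, adjusted p = 3.19e-23). Gad1 neurons had 11.2 to 13.6 CPM and were lower by 2.79 ± 0.22 (adjusted p = 2.67e-16). Adamts3, which shares that substrate, was highest in Slc17a6+Sim1 at 73.2, 46.1, 50.6 and 63.1 CPM (1.36 ± 0.20 log2 units above other neurons, adjusted p = 5.13e-07), overlapping Slc17a6 only at 27.5 to 49.3 CPM. Adamts14 had 108 UMIs and did not pass the filter.

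Adamts6 was at 242, 295, 310 and 265 CPM in Th+Slc6a3, above every library of the next class, Pdgfra (143 to 155 CPM), and of Mog (108 to 160 CPM). Th+Slc6a3 nuclei exceeded the other neurons by 2.10 ± 0.10 log2 units (3.93-fold, adjusted p = 2.97e-27). Adamts19 was at 129, 152, 191 and 99.9 CPM in Th+Slc6a3 (1.95 ± 0.13 log2 units, adjusted p = 1e-20) and at 42 to 128 CPM in Slc26a7+Gad2, which overlapped. Adamts18 was at 28.9, 28, 22.3 and 16.5 CPM in Slc17a6+Lmx1a (2.09 ± 0.27, adjusted p = 1.7e-08), overlapping Th+Slc6a3 at 10.9 to 27 CPM. Adamts17, a gene of Weill-Marchesani syndrome, was at 164, 171, 169 and 197 CPM in Pdgfra (7.39 ± 0.32 log2 units, adjusted p = 2.88e-29, and 5.00 ± 0.17 without the vessel classes) and at 56.2 to 91.6 CPM in Gja1. Adamts12 was at 74.1 to 172 CPM in Pdgfrb, 109 to 128 CPM in Gja1 and 102 to 127 CPM in Pdgfra, which overlapped.

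Adamts13, which cuts von Willebrand factor, did not pass the filter in the class comparison, with 79 UMIs. Its Csf1r levels were 62.4, 57.2, 0 and 22.1 CPM, and every other class had a mean below 1 CPM. Of the Adamtsl proteins, which bind fibrillin and matrix, Adamtsl3 was at 25 to 31.7 CPM in Mog (3.77 ± 0.41 log2 units above other non-neuronal classes, adjusted p = 3.28e-12, and 2.70 ± 0.21 without the vessel classes) and at 27.2 to 50.9 CPM in Th+Slc6a3. Adamtsl2 was at 75.2, 71.5, 0 and 154 CPM in Flt1 and at 13 to 24.5 CPM in Th+Slc6a3.

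Counted over the 76 members, of which 51 could be tested, 25 differed between neurons and non-neuronal classes by edgeR's quasi-likelihood test at an adjusted p under 0.05 and a log2 difference over 1, against 39.2% of all 12413 genes tested. In neurons 20 were higher (33.4% of all genes) and 5 lower (5.85%), and the members' median log2 difference was 0.90 where that of all genes was 0.61. Within neurons, 20 members differed in Th+Slc6a3 (8.46% of all genes), 11 of them higher (4.58%) and 9 lower (3.88%). In Slc26a7+Gad2 6 differed (1.93%), 4 higher (1.13%) and 2 lower (0.798%). In Gad1 5 differed (3.85%), 1 higher (2.47%) and 4 lower (1.38%). In Slc17a6+Lmx1a 8 differed (2.29%), 8 higher (1.64%) and 0 lower (0.644%). In Slc17a6+Sim1 10 differed (3.58%), 5 higher (1.96%) and 5 lower (1.63%). In Slc17a6 only 5 differed (1.76%), 3 higher (1.22%) and 2 lower (0.532%).

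Several of these counts changed with fewer nuclei or libraries. Restricted to nuclei of 1500 to 10000 UMIs, the Th+Slc6a3 count was 11 (262 of 400 nuclei left), Slc17a6+Lmx1a 4 (386 of 636), Slc17a6+Sim1 5 (157 of 285) and Slc17a6 only 3 (463 of 636). The members called also changed. Of the 5 first called in Slc17a6 only 1 was called again, of the 6 in Slc26a7+Gad2 2 (5 called here), and of the 5 in Gad1 3 (6 called here). The range of depth and the number of nuclei cannot be told apart here. The count in Slc26a7+Gad2 was 3 without female 1, without female 2 or without male 2, in Slc17a6+Lmx1a 5 without female 1 and 4 without female 2, and in Slc17a6 only 2 without female 1 or without male 2. The named calls lost most often in Slc26a7+Gad2 were the lower levels of Adamts18 (adjusted p = 0.0448) and Adamtsl2 (adjusted p = 0.0197).

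Among non-neuronal classes, 28 members differed in Pdgfra (30.3% of all genes), 23 of them higher (26.5%) and 5 lower (3.79%). In Gja1 23 differed (29.9%), 20 higher (25.9%) and 3 lower (4%), among them Lama2 and Col11a2 as higher. In Mog 14 differed (31%), 8 higher (24.2%) and 6 lower (6.79%), and in Csf1r 14 (27.8%), 4 higher (20%) and 10 lower (7.76%). In Flt1 10 differed (15.3%), 8 higher (5.53%) and 2 lower (9.79%), and in Pdgfrb 17 (8%), 17 higher (5.2%) and 0 lower (2.8%). A share near that of all genes says nothing particular of the members.

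Flt1 and Pdgfrb have low totals that put many genes at 0. Without these classes the Mog count was 23 (32% of all genes), 8 higher (15.5%) and 15 lower (16.5%), and the Csf1r count was 28 (38.2%), 5 higher (15.1%) and 23 lower (23%). With RLE in place of TMM scaling the Mog split was 8 higher and 9 lower. DESeq2 called 56 members in Mog (49 lower), 40 in Csf1r (35 lower), 37 in Gja1 (18 lower) and, between neurons and non-neuronal classes, 40 (20 lower). It was run without the low-count filter, so these counts are not out of the 51 members and cannot be set directly against the edgeR counts. Shares of all genes are not given for DESeq2. Its median log2 difference of all genes moved by -0.483 in Mog, -0.397 in Csf1r, -0.303 in Gja1 and -0.171 between neurons and non-neuronal classes. Leaving out nuclei with fibroblast markers left 16 in Pdgfrb, and the Pdgfrb values rest on 68 nuclei.

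The wider matrix pathway was read from 5 lists. Of 14 lecticans and other Adamts substrates or partners, 13 could be tested, and 10 of the 13 differed in Pdgfra nuclei (30.3% of all genes; 8 higher; list median 3.78 log2 units against 0.58 for all genes), among them the lectican Vcan (2578 to 3012 CPM) and Tnr, which crosslinks lecticans (2163 to 2395 CPM). In Gja1 7 of the 13 differed (29.9% of all genes; 5 higher), with Bcan at 619 to 826 CPM, and in Mog 4 (31%), with Hapln2 at 1158 to 1342 CPM. In Slc26a7+Gad2 neurons 4 were higher (1.13% of all genes) and none lower (list median -0.03 against -0.09 for all genes), with Vcan at 65.6 to 94.4 CPM, whereas in Th+Slc6a3 3 were lower (3.88%) and none higher (list median -0.64 against 0.03 for all genes), Bcan by 2.45 ± 0.28 log2 units (adjusted p = 3.94e-11) and the link protein Hapln4 by 2.00 ± 0.18 (adjusted p = 3.42e-14).

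Of the 20 genes for collagen synthesis and crosslinking, 14 could be tested, and 2 differed in Th+Slc6a3, where 8.46% of all genes did: Plod2, a procollagen lysyl hydroxylase, was at 98.4 to 161 CPM (higher by 4.21 ± 0.17 log2 units, adjusted p = 9.84e-31), and P3h2, a prolyl 3-hydroxylase, was lower by 1.81 ± 0.22. In Gja1 9 of the 14 differed (29.9% of all genes; 7 higher), with Plod2 at 35 to 53.8 CPM, and in Mog the collagen chaperone Serpinh1 was lower (0.963 to 1.94 CPM, by 4.38 ± 0.29). Of 22 matrix receptors 17 could be tested, and 4 differed in Th+Slc6a3 (8.46% of all genes; 2 higher), with integrin Itga9 at 50.9 to 61.7 CPM (1.91 ± 0.22, adjusted p = 1.16e-10), 10 in Csf1r (27.8%) and 9 in Mog (31%), where the collagen receptor Ddr1 was at 304 to 483 CPM. Of 8 other basement membrane genes 7 could be tested, and 6 differed in Pdgfra (30.3%) and 2 in Th+Slc6a3 (8.46%), where the laminin binder Nid1 was at 19.6 to 31.2 CPM (2.82 ± 0.30 log2 units, adjusted p = 1.3e-11). Of 13 inhibitors and other matrix proteases 10 could be tested, and 8 were higher in Pdgfra (26.5% of all genes), with the membrane protease Mmp16 at 2162 to 2328 CPM.

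No member differed between the sexes in any test as specified. Over all kept nuclei 0 of the 70 members tested passed edgeR's test (4 at an unadjusted p under 0.05, 0 by DESeq2), against 0.0312% of all genes. Within the 10 classes with enough nuclei, 0 of 252 member and class pairs passed (23 at an unadjusted p under 0.05, 0 by DESeq2, 0.0754% of all pairs), and in the test of sex by class 0 of 46 passed (4 at an unadjusted p under 0.05, 0 by DESeq2, 0.122% of all genes). Without the filter on low counts 4 pairs passed, led by Col25a1 in Slc26a7+Gad2 (0 and 8.14 CPM in females, 93.1 and 17.7 CPM in males, adjusted p = 9.66e-05), and the other 3 were Adamts2 in Slc17a6 only, Col5a3 in Mog and Adamts13 in Csf1r. With 2 pools per sex, the p-values over all nuclei and within classes measure only the spread between pools.

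Adamts13 had the smallest p of the members over all nuclei, at 1.59, 1.8, 0.477 and 0.589 CPM over all nuclei (1.68 ± 0.36 log2 units higher in females, adjusted p = 0.902), from 32, 37, 9 and 14 UMIs. Adamts2 was at 45.6, 52, 70 and 73.6 CPM (lower in females by 0.52 ± 0.13, adjusted p = 0.902), and the libraries of the 2 sexes did not overlap; Slc17a6+Lmx1a, its highest class, had 126, 108, 178 and 224 nuclei in the same order, and the part of these numbers was not tested. Lama2 over all nuclei was at 162, 151, 79.5 and 204 CPM, with male 1 lowest, and that library also had the fewest Gja1 nuclei (232, against 411 to 841). Col19a1 was at 80.6, 21.7, 64.3 and 64.6 CPM, with female 2 lowest.

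**Figure D4:**
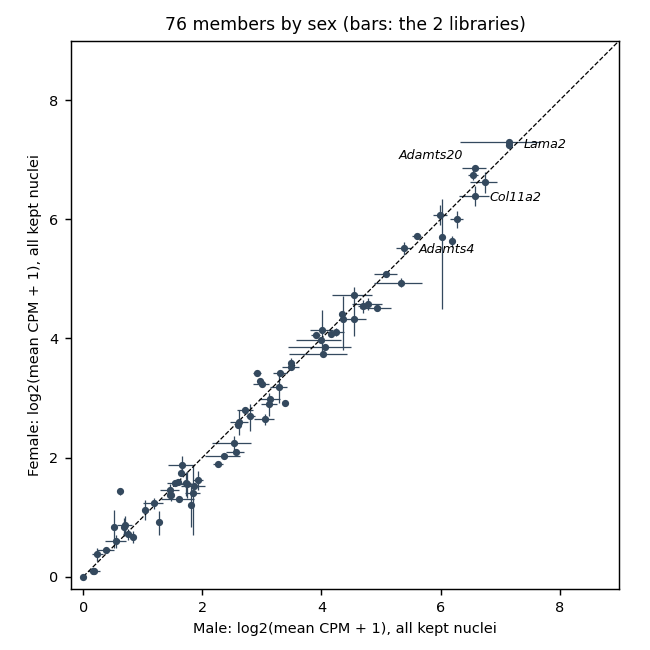
Each of the 76 members over all kept nuclei: mean of the 2 male libraries (x) against mean of the 2 female libraries (y), as log2 of CPM plus 1, with bars from the lower to the higher library and a dashed line of equality. The points follow the line, and the wide horizontal bar of Lama2 spans 79.5 CPM in male 1 to 204 CPM in male 2.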

How the data were processed

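The deposited files hold raw counts of UMIs per gene and barcode, 1 matrix for each of the 4 libraries. They were made with Cell Ranger on genome build rn6, per the submitters' processing notes, and carry software version 3.0.2, per the file headers; for intron counting and barcode selection, steps were not given in the sources used here. Of 21606 barcodes, 6 with under 200 genes or over 5% of UMIs in 13 mitochondrial genes were removed, then 980 (4.54%) as doublets, the highest Scrublet scores at a rate of 0.8% per 1000 barcodes; 36 barcode sequences occurred in 2 libraries. Median UMIs per kept nucleus were 2381, 3202, 3861 and 2767.5 in female 1, female 2, male 1 and male 2.

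Classes needed at least 2 UMIs of the marker, or 1 of each marker of a pair, and the first neuron rule met was used (160 nuclei met several). Nuclei that met a neuron and a non-neuronal rule (128) or several non-neuronal rules (106) were left out. Counts were summed per library and class (48 sums) and tested with edgeR 4.0.16 in R 4.3.3: TMM scaling, low-count filter, quasi-likelihood test with the library as block, each class against the equally weighted log-scale mean of the other neuron or non-neuronal classes, Benjamini-Hochberg adjustment over all 12413 genes. Such a log2 difference depends on edgeR's prior count where a class is near 0, so levels and, for some members, ratios of mean CPM or values without the vessel classes are given beside it. The sexes were compared without a block over all kept nuclei and within the 10 classes with at least 20 nuclei in every library. The p-values of these unblocked sex tests measure the spread between pools of 3 rats. Those of the tests with the library as block measure the spread left between sums after the fitted terms.

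Up to 5 members called higher and 3 called lower with a mean of at least 5 CPM were named per comparison, with up to 2 genes of each pathway list; further members describe a role group and were picked after their values were seen. Members and lists were chosen with earlier results of these data known. Alternatives were DESeq2 1.42.0, RLE scaling, no low-count filter, doublets kept, other class rules or depths, no library block, a replicate block for the sexes, leaving out each library and, added after seeing the data, leaving out the Flt1 and Pdgfrb classes. Scripts used Python 3.11.15 and scanpy 1.11.5 and were tested on simulated counts. Promoters are from RefSeq on GRCr8, which holds 60 of the 76 members, and are not in the coordinates of rn6.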

Additional observations from a re-analysis of the deposited data

Results flagged for a closer look

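Among 72 pairs of a named member and a class, 5 had 1 library whose gap to the nearest other library, divided by the range of the 4, was above Dixon's critical value for 4 samples at the 95% level, which chance passes in about 5% of groups. Col18a1 in Pdgfrb nuclei was at 1030 CPM in female 2, the library with 9 such nuclei, against 159 to 222 CPM in the others. Adamts9 in Th+Slc6a3 nuclei was at 109.1 CPM in male 1, against 47.8 to 56.7 CPM. Adamts2 in Gad1 nuclei was at 11.24 CPM in male 1, against 13.3 to 13.6 CPM, all 4 far below the levels in Slc17a6+Lmx1a. Col6a2 in Slc17a6+Sim1 nuclei was at 1.077 CPM in male 1, which is 1 UMI, and at 0 in the other 3. Col4a4 in Mog nuclei was at 1.604 CPM in male 2, against 0.412 to 0.524 CPM.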

How the results depend on the processing

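Of 1174 values of named members under the alternatives, 1094 stayed on the same side of the thresholds, 80 no longer passed and 0 changed direction. Of 86 named values, 63 passed in every alternative in which the gene was tested. Some were not tested in all: Lama1 in Slc17a6 only was tested in 10 alternatives, where Col19a1 in that class was tested in 14. Of 217 counts of called members, 185 stayed within 1.5 times the reported count. DESeq2, run without the low-count filter and so on more members, called 40 between neurons and non-neuronal classes, 8 in Gad1 and 56 in Mog. It called 37 in Gja1, 40 in Csf1r, 28 in Flt1 and 27 in Pdgfrb. Without a low-count filter 9 were called in Gad1, 3 in the test of sex by class and 4 between sexes within classes. Non-neuronal rules at 1 UMI gave 4 in Slc17a6+Lmx1a and 29 in Mog, and leaving out nuclei with several neuron rules gave 3 in Slc26a7+Gad2. Nuclei of 1500 to 10000 UMIs gave 11 in Th+Slc6a3, 4 in Slc17a6+Lmx1a, 5 in Slc17a6+Sim1, 3 in Slc17a6 only and 7 in Pdgfrb. Without the Flt1 and Pdgfrb classes the counts were 23 in Mog and 28 in Csf1r. RLE scaling moved the median log2 difference of all genes by 0.62 in Flt1, 0.44 in Pdgfrb, -0.37 in Mog, -0.32 in Csf1r, -0.20 in Gja1 and -0.16 in Pdgfra, and split the Slc26a7+Gad2 calls 4 higher to 1 lower. The cause was not tested.

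Leaving out each library in turn gave 3 to 5 calls in Slc26a7+Gad2, 4 to 7 in Slc17a6+Lmx1a, 2 to 4 in Slc17a6 only, 0 to 1 in the test of sex by class (Col19a1 without female 1) and 0 to 4 between sexes within classes (2 without female 1, 1 without female 2, 4 without male 2, each with 1 library left in a sex, assumed to vary like the other libraries). The replicate numbers do not pair the libraries in the labels; female 1 minus female 2 and male 1 minus male 2 correlated over 13032 genes at r = 0.336. With the replicate number as a block, 4 members passed between sexes within classes: Col14a1 in Th+Slc6a3, Adamts2 in Slc17a6 only, Col5a3 in Mog and Adamts13 in Csf1r.

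Named calls lost in 3 or more alternatives were Adamts18 (12 of 13), Adamtsl2, Lamb1 and Col12a1 in Slc26a7+Gad2, Col4a2 (7 of 13) and Col5a3 in Csf1r, Col18a1 in Slc17a6+Lmx1a (7 of 13), Adamts9 in Pdgfra, Adamts9, Col24a1 and Col27a1 in Slc17a6 only, Col16a1 in Slc17a6+Sim1 and Col5a2 between neurons and non-neuronal classes. The higher Lama2 of Slc17a6+Sim1 was lost with nuclei of 1500 to 10000 UMIs (0.21, adjusted p = 0.902). The 5 to 29 nuclei per library of the vessel classes limit every value there, and members at 0 in them may lie below detection.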
